A study of Nicotiana tabacum with 6 samples.

Results

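MYB genes of cultivated tobacco (Nicotiana tabacum), an allotetraploid plant that carries the genomes of a pair of wild ancestors, were followed in seedlings kept on a low nitrogen supply. Members were the genes whose deposited symbol begins with MYB followed by a number alone, such as MYB24. The rule found 254 genes under 26 symbols, of 69500 genes in the count table. Each symbol entry names an Arabidopsis thaliana locus, for 254 of 254 members, so that a symbol marks the Arabidopsis gene a tobacco gene was named after. Genes of 1 symbol are called copies here, which says nothing of their origin. Another 34 genes mention MYB elsewhere in the entry or under a longer name, 12 of them MYB3R and 14 LIMYB genes, and were not members.

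The study compared seedlings fed 0.75 mM ammonium nitrate (low nitrogen) with seedlings fed 7.5 mM (control), both in a solution of Hoagland type. Treatment lasted 15 days, with fresh solution every 7 days, and each group has 3 libraries of polyadenylated RNA. Cultivar, age and organ are not given in the labels, which say only seedling. Nor do they say whether libraries came from separate plants, so the p-values describe differences relative to library-to-library spread, which could be partly technical.

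MYB proteins are transcription factors that bind DNA through repeats of a helical domain, and the type with a pair of such repeats (R2R3) forms a large plant family. In Arabidopsis its members act on narrow sets of genes: enzymes of the phenylpropanoid and flavonoid pathway, secondary wall and suberin formation, stamen and pollen development, and responses to abscisic acid and stress. Some work together with bHLH and WD40 proteins, and others are bound by the repressors of jasmonate signalling. No sequences are shown for these genes.

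Library totals ran from 13027374 to 15620067 counts. Levels below are CPM, counts scaled to library totals with TMM factors, which are not divided by gene length and are therefore compared between groups and not between genes. Libraries of 1 group were not alike. The summed level of 66 light-harvesting genes, markers of green tissue, was 432, 192 and 63.6 CPM in low nitrogen replicates 1 to 3, against 55.0, 32.6 and 941 CPM in control replicates 1 to 3 (without TMM scaling). Members with 0 counts in a library could still be present at up to 0.192 to 0.230 CPM, the level of 3 counts, which covers counting error only.

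Many MYB genes had few counts or none. No count in any of the 6 libraries was found for 44 of the 254 members. A further 80 had between 1 and 73 counts over all libraries (median 11.5) and did not pass edgeR's filter on low counts. The remaining 130 were tested, under 18 symbols. Of these, 107 were above the filter's level of 0.722 CPM in all 6 libraries, 9 in all low nitrogen libraries but not all control libraries, and 4 the other way round. One tested member, MYB86 (Nitab4.5_0007042g0010), was above it in the low nitrogen libraries alone (1 of 130). It passed the filter through the group where it is higher, and it is among the higher and the non-overlapping genes counted below. The median over the 130 tested genes of the mean level was 3.83 CPM, against 10.4 CPM over all 38482 tested genes.

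The 8 symbols without a tested gene included regulators that in Arabidopsis act in other organs or pathways. MYB11, a flavonol activator, and MYB90, an anthocyanin activator, had 0 counts over their 3 genes. The 10 MYB98 genes, named after a factor of the synergid cells of the ovule, held 7 counts in low nitrogen and 0 in control. MYB76, named after a glucosinolate regulator of the cabbage family, held 4 counts in low nitrogen and 5 in control over 4 genes. MYB48 held 46 counts in low nitrogen and 12 in control over 5 genes, and MYB58, a lignin regulator, held 2 in low nitrogen and 23 in control, all 23 in control replicate 3 (1.62 CPM). MYB8 held 20 counts in low nitrogen and 10 in control, and MYB6 held 4 in low nitrogen and 2 in control.

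Low nitrogen was compared with control by edgeR's quasi-likelihood test over all 38482 tested genes. A positive log2 fold change means a higher level in low nitrogen. With Benjamini-Hochberg adjustment 0 genes passed the threshold of 0.05 (0% in each direction), and so 0 MYB genes did. The smallest adjusted p was 0.138, shared by 6 genes. At an unadjusted p under 0.05, 16 of the 130 tested MYB genes were higher in low nitrogen (12.3%), where 6.1% of all tested genes were, and 3 were lower (2.31%), where 5.66% were. With limma-voom the count of adjusted p under the threshold was 0 as well. DESeq2 placed 588 genes past it, 0.709% of all tested genes higher and 0.819% lower. Among them were 3 MYB genes, all higher: a MYB24 copy and a pair of MYB27 copies.

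Groups did not overlap for 12 MYB genes that were higher (9.23%) and 6 that were lower (4.62%), against 9.72% and 8.49% of all tested genes. These differences in share were not tested. Fold changes were above 0 for 71 of the 130 genes (54.6%, and 50.3% over all genes). Their median was 0.04, against 0.00 over all genes. The 16 higher genes with an unadjusted p under 0.05 fell under 11 symbols, 5 of them MYB27. The other 11 were 8.94% of the 123 tested genes outside that symbol. Leaving out control replicate 1 brought the count of 16 to 8, and leaving out low nitrogen replicate 1 brought it to 9. For the count of 3, leaving out a control gave 6 (replicate 1) and 7 (replicate 3), and leaving out a low nitrogen library gave 6 (replicate 2) and 9 (replicate 3). Other single libraries left out could raise the count of 16 or lower the count of 3, and the ranges are given below. Shares of all tested genes in these fits are not given here.

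**Figure D1:**
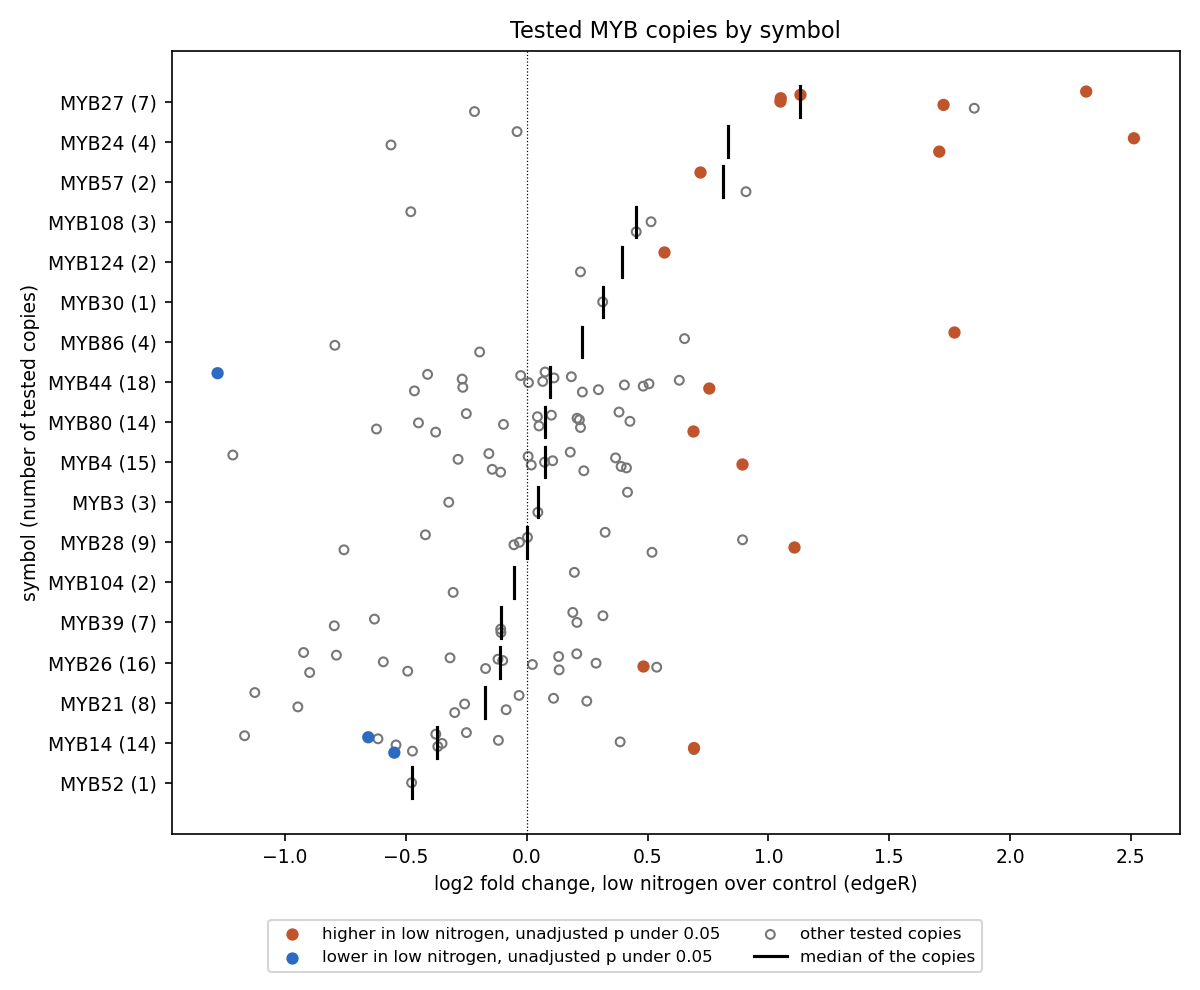
Each point is 1 of the 130 tested MYB genes, with its log2 fold change (low nitrogen over control, edgeR) on the horizontal axis and its symbol on the vertical axis, and black bars mark the median of each symbol's copies. The MYB27 copies sit to the right, with 6 of 7 above 0, while the MYB14 copies sit to the left, with 11 of 14 below 0, and the copies of MYB44, MYB80, MYB4 and MYB26 lie on both sides of 0.

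MYB24 (Nitab4.5_0001041g0130) had the smallest p of all tested genes. In Arabidopsis MYB24 and its relatives MYB21 and MYB57 promote stamen maturation, downstream of jasmonate. The copy was at 12.14, 12.03 and 10.59 CPM in low nitrogen replicates 1 to 3, against 1.78, 1.87 and 2.40 CPM in control replicates 1 to 3. Its 3 low nitrogen values lay close together and far above the controls. The log2 fold change was 2.51 (SE 0.20), with an adjusted p of 0.138 in edgeR and of 4.92e-15 in DESeq2. It lay between 2.43 and 2.65 when any 1 library was left out, while the edgeR adjusted p ranged from 0.0390 without control replicate 3 to 0.637 without low nitrogen replicate 1. With both libraries richest in light-harvesting transcripts within their group left out (control replicate 3 and low nitrogen replicate 1), it was 2.61, with an adjusted p of 0.0960. In bulk libraries a different number of cells of a type and a different amount of RNA per cell cannot be told apart, in either direction.

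The other 9 MYB24 copies did not share this pattern as a group. Nitab4.5_0000745g0040 was at 2.51, 1.81 and 2.15 CPM in low nitrogen, against 0.405, 1.27 and 0.282 CPM in control. All 3 low nitrogen values exceeded the controls, although control replicate 2 stood above the other controls. Its log2 fold change was 1.71 (SE 0.56, edgeR adjusted p 0.381). Nitab4.5_0000895g0070 was at 12.4, 6.23 and 17.9 CPM in low nitrogen, against 13.5, 23.7 and 16.4 CPM in control. These groups overlapped, at a log2 fold change of -0.56 (SE 0.38). Nitab4.5_0008289g0010 had 0.915 CPM on average in low nitrogen and 0.947 CPM in control. The remaining 6 were not tested. Nitab4.5_0001769g0160 averaged 0.523 CPM in low nitrogen and 0.165 CPM in control, and Nitab4.5_0003867g0010 averaged 0.205 CPM in low nitrogen and 0.543 CPM in control. Nitab4.5_0000210g0060, Nitab4.5_0001176g0010 and Nitab4.5_0001616g0010 stayed at or under 0.282 CPM in every library, and Nitab4.5_0006450g0010 had no count. With counts summed over all 10 copies, MYB24 was at 27.6 ± 5.70 CPM in low nitrogen and 22.5 ± 5.10 CPM in control (SD, n = 3). That difference was 0.28 on the log2 scale (SE 0.22, edgeR adjusted p 0.587 over the 16100 units left after counts of genes with the same first symbol were added up).

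**Figure D2:**
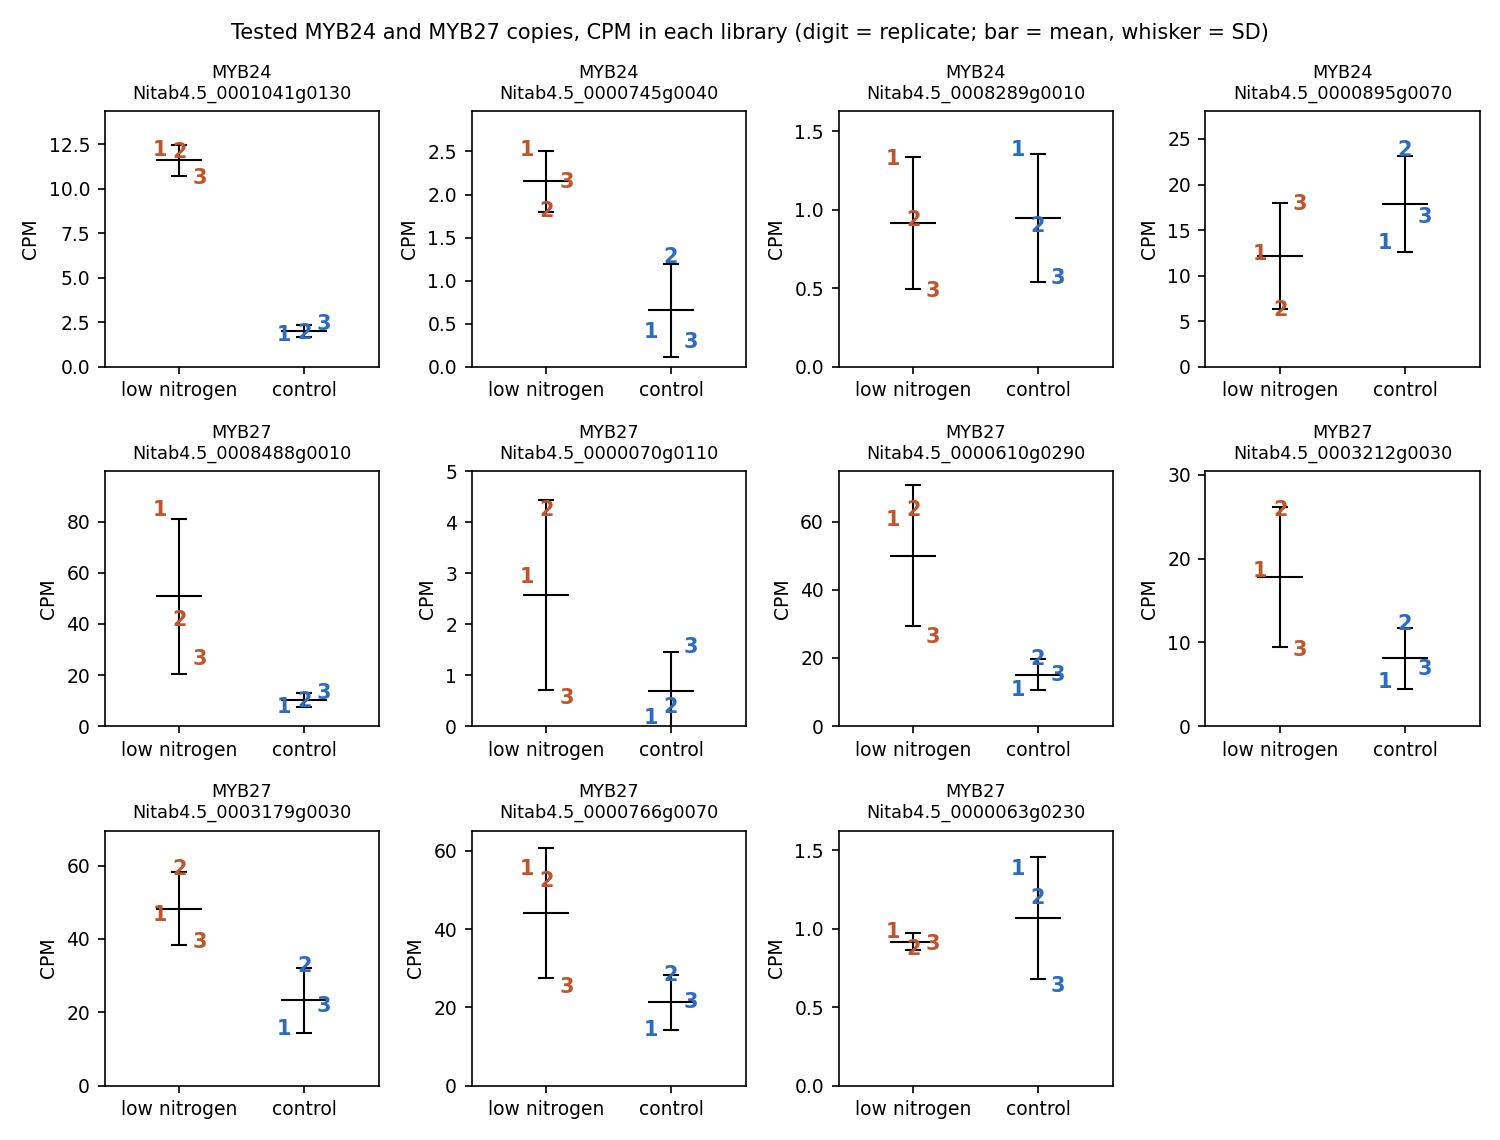
CPM in each library for the 4 tested MYB24 copies and the 7 tested MYB27 copies, with low nitrogen left of control; digits give the replicate, bars the mean and whiskers the SD of 3 libraries. In MYB24 Nitab4.5_0001041g0130 all low nitrogen values lie between 10.59 and 12.14 CPM, above all controls, and low nitrogen replicate 3 is the lowest of its group in 6 of 7 MYB27 copies.

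MYB27 was the symbol with the most copies among the higher genes. Of its 10 copies 7 were tested, and 6 had fold changes above 0 with a median over the 7 of 1.13. At edgeR's unadjusted p under 0.05, 5 were higher (71.4%, and 6.1% of all tested genes). The copies may share reads and are not independent. Nitab4.5_0008488g0010 was at 84.6, 41.8 and 26.1 CPM in low nitrogen, against 7.54, 9.96 and 13.05 CPM in control. The groups did not overlap, although the low nitrogen values spread over a wide range. Its log2 fold change was 2.32 (SE 0.44), with an adjusted p of 0.316 in edgeR and 5.28e-05 in DESeq2. Nitab4.5_0000610g0290 was at 60.4, 63.4 and 26.2 CPM in low nitrogen, against 10.6, 19.6 and 15.1 CPM in control. Here too the groups were apart, by 1.73 on the log2 scale (SE 0.37), and the adjusted p was 0.332 in edgeR and 0.00162 in DESeq2.

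Nitab4.5_0003179g0030, also a MYB27 copy, was at 46.6, 59.0 and 39.1 CPM in low nitrogen, against 15.3, 32.7 and 21.8 CPM in control. It had a log2 fold change of 1.05 (SE 0.29), no overlap, and a DESeq2 adjusted p of 0.0543. Nitab4.5_0000766g0070 was at 55.3, 52.3 and 25.1 CPM in low nitrogen, against 14.3, 28.4 and 21.3 CPM in control. Low nitrogen replicate 3 lay below control replicate 2 in this copy. Nitab4.5_0003212g0030 was at 18.5, 25.8 and 9.07 CPM in low nitrogen, against 5.27, 12.2 and 6.84 CPM in control, with the same overlap. The weakly counted copies were less regular. Nitab4.5_0000070g0110 was at 2.93, 4.24 and 0.554 CPM in low nitrogen, against 0.162, 0.374 and 1.55 CPM in control, and Nitab4.5_0000063g0230 was at 0.977, 0.872 and 0.900 CPM in low nitrogen, against 1.38, 1.20 and 0.635 CPM in control. The 3 copies not tested were Nitab4.5_0002626g0050, at 0.428 CPM on average in low nitrogen and 0.180 CPM in control, Nitab4.5_0004195g0050, with counts in 1 library of each group, and Nitab4.5_0005019g0040, with none.

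Summed over its copies, MYB27 was at 270.1, 248 and 128 CPM in low nitrogen replicates 1 to 3, against 55.0, 104 and 80.7 CPM in control replicates 1 to 3. All low nitrogen sums exceeded all control sums. The log2 fold change was 1.41 (SE 0.33, unadjusted p 0.00373, edgeR adjusted p 0.318). It ranged from 1.21 to 1.69 without any 1 library, and 0 of the 16100 summed units passed the threshold (smallest adjusted p 0.112). At an unadjusted p under 0.05, 6.38% of them were higher and 6.39% lower, and of the 18 MYB symbols among them MYB27 and MYB57 were higher and MYB14 lower. MYB27 took 24.2%, 24.7% and 12.8% of the counts of all MYB genes in low nitrogen, against 6.80%, 10.2% and 9.44% in control. The sum of all 254 members was 1116, 1004 and 995 CPM in low nitrogen, against 808, 1026 and 855 CPM in control, with control replicate 2 above low nitrogen replicates 2 and 3. Without MYB27 the sum was 846, 756 and 868 CPM in low nitrogen, against 753, 921 and 774 CPM in control, and these overlapped too.

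Most MYB27 copies had the same lowest library within the low nitrogen group, but not the same highest one. The highest was replicate 1 in 3 copies and replicate 2 in 4. Low nitrogen replicate 3 was the lowest of its group in 6 of 7 copies, whereas over all 130 tested MYB genes it was the lowest in 45. Control replicate 1 was the lowest control in 6 of 7 copies, and in 62 of the 130. Light-harvesting transcripts were also lowest in low nitrogen replicate 3 within its group, but highest in control replicate 3, and their part in the MYB27 values was not tested. When control replicate 3 and low nitrogen replicate 1 were both left out, the log2 fold changes of the 5 copies with the most counts were 1.94, 1.55, 1.02, 0.84 and 0.98, in the order of their description. The number of MYB27 copies higher at an unadjusted p under 0.05 was then 3. Leaving out control replicate 1, or low nitrogen replicate 1, or low nitrogen replicate 2, also gave 3. Copies of a symbol may be near-identical and share reads, so that the 7 are not independent.

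**Figure D3:**
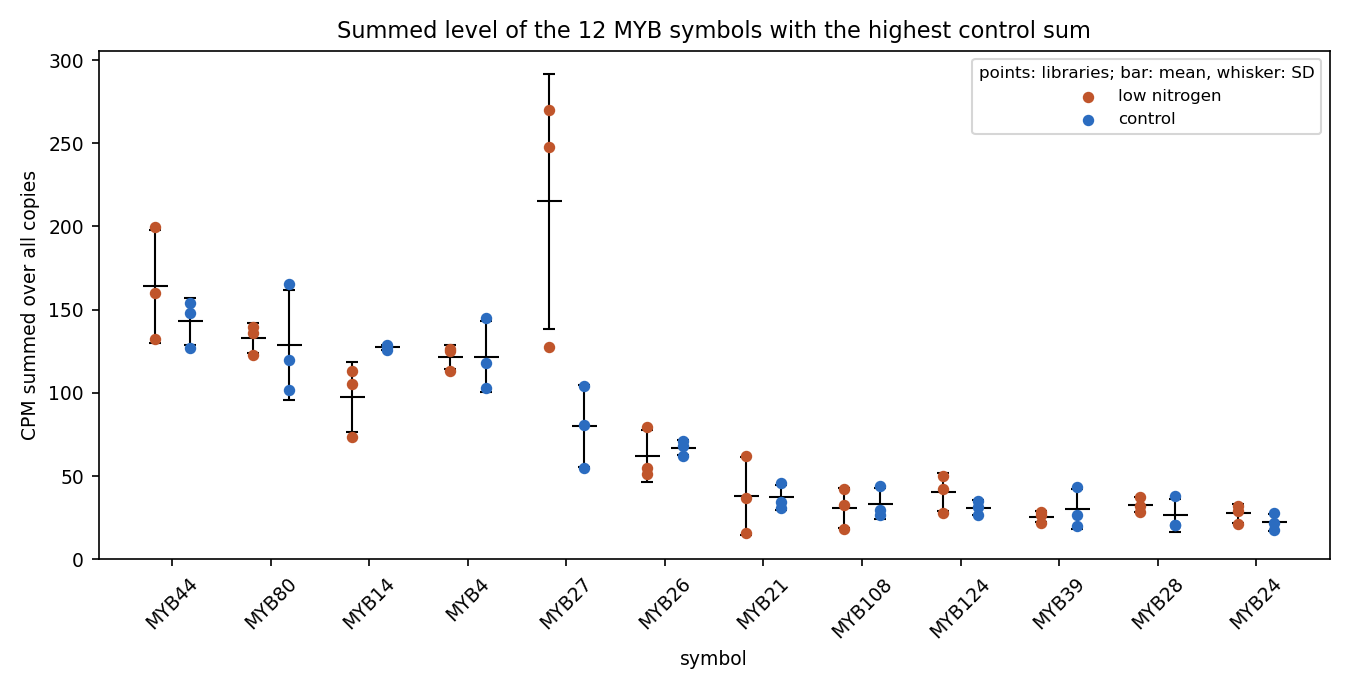
CPM summed over all copies of a symbol, for the 12 MYB symbols with the highest mean in control, with low nitrogen left of control; points are libraries, bars means and whiskers SD over 3 libraries. MYB27 has 3 low nitrogen sums of 128 to 270.1 CPM above controls of 55.0 to 104 CPM, and MYB14 has 73.5 to 113 CPM in low nitrogen below controls of 126 to 129 CPM.

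MYB21, MYB57 and MYB108 carry the names of further Arabidopsis genes of stamen development under jasmonate, and MYB108 is known there in stress responses too. MYB57 (Nitab4.5_0002300g0110) was at 15.0, 15.1 and 8.24 CPM in low nitrogen, against 7.78, 8.91 and 6.63 CPM in control, with low nitrogen replicate 3 inside the control range. Its log2 fold change was 0.72 (SE 0.27, edgeR adjusted p 0.397), and the sum of the symbol gave 0.71 (SE 0.25, adjusted p 0.374). Another MYB57 copy (Nitab4.5_0000428g0150) had 1.08 ± 0.272 CPM in low nitrogen and 0.573 ± 0.201 CPM in control (SD, n = 3). The 8 tested MYB21 copies spread from -1.13 to 0.25 on the log2 scale, with 6 below 0, and 0 of them had an unadjusted p under 0.05. The lowest, Nitab4.5_0005769g0040, was at 0.768, 0.312 and 0.485 CPM in low nitrogen, against 0.567, 1.498 and 1.34 CPM in control, with overlap.

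MYB21 and MYB108 varied widely between the libraries of the low nitrogen group. Summed MYB21 was at 36.7, 15.7 and 62.0 CPM in low nitrogen, against 46.0, 31.2 and 34.7 CPM in control. Low nitrogen replicates 2 and 3 thus lay on either side of all controls. Summed MYB108 showed the same order within the low nitrogen group, at 32.8, 18.2 and 42.1 CPM, against 26.6, 44.3 and 29.9 CPM in control. MYB24 Nitab4.5_0000895g0070 had this order as well, and shares a scaffold part of its identifier with a MYB21 copy (Nitab4.5_0000895g0130). That MYB21 copy was at 0.977, 0.125 and 0.900 CPM in low nitrogen, with replicate 1 and not replicate 3 the highest. Its controls were at 1.30, 1.35 and 1.20 CPM. Over the 30 genes of this jasmonate-linked list 17 were tested, 3 were higher by the unadjusted threshold (17.6%, and 6.1% of all tested genes) and 0 lower (5.66% of all), with a median log2 fold change of -0.03. The 3 were the MYB24 pair and the MYB57 copy above. This list was chosen with earlier results of these data known, and it holds the gene with the smallest p of all. Its share beside that of all genes is therefore a description and not a test.

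MYB44, a factor of abscisic acid and stress responses in Arabidopsis, had counts in each of its 23 genes. Of these 18 were tested, 12 with fold changes above 0. At an unadjusted p under 0.05 a single copy was higher and a single copy lower (5.56% each). Over all tested genes 6.1% were higher and 5.66% lower. Nitab4.5_0000174g0270 was at 7.89, 7.98 and 8.10 CPM in low nitrogen, against 4.38, 6.14 and 3.67 CPM in control. Its low nitrogen values were tight and lay above all controls, with a log2 fold change of 0.76 (SE 0.23, edgeR adjusted p 0.367). Nitab4.5_0008039g0010 was at 0.977, 1.31 and 0.900 CPM in low nitrogen, against 1.86, 2.02 and 3.88 CPM in control. It lay the other way without overlap, at -1.28 (SE 0.40). The copy with the most counts, Nitab4.5_0001984g0040, was at 58.1, 29.5 and 37.5 CPM in low nitrogen, against 21.6, 24.8 and 34.3 CPM in control, and the groups overlapped. Nitab4.5_0005060g0020 was at 36.1 ± 10.3 CPM in low nitrogen and 31.8 ± 3.67 CPM in control (SD, n = 3). Nitab4.5_0006037g0010 was at 6.26 ± 0.873 CPM in low nitrogen and 8.33 ± 1.23 CPM in control. Summed MYB44 gave 164 ± 33.8 CPM in low nitrogen and 143 ± 14.1 CPM in control.

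MYB14, a name that in Arabidopsis belongs to a factor linked to cold responses, is the symbol with the most genes. Of 42 copies 14 were tested, and 11 of those had fold changes below 0, with a median of -0.37. The summed level was 105, 73.5 and 113 CPM in low nitrogen, against 128, 126 and 129 CPM in control. The controls were nearly equal and all low nitrogen sums lay below them, with a log2 fold change of -0.41 (SE 0.17, unadjusted p 0.0454, edgeR adjusted p 0.387). It was -0.24 without low nitrogen replicate 2. Nitab4.5_0000044g0310 was at 21.3, 14.0 and 26.9 CPM in low nitrogen, against 30.9, 31.8 and 28.2 CPM in control, without overlap. Nitab4.5_0004662g0010 was at 15.0, 13.3 and 22.6 CPM in low nitrogen, against 24.1, 33.5 and 22.6 CPM in control, and low nitrogen replicate 3 touched the controls. Their log2 fold changes were -0.55 (SE 0.23) and -0.66 (SE 0.25), in the order named. In the other direction, Nitab4.5_0000205g0020 was at 4.05, 3.68 and 3.39 CPM in low nitrogen, against 2.76, 1.65 and 2.47 CPM in control. This copy was named after its values were seen, because it was the single MYB14 gene higher at an unadjusted p under 0.05 (0.0419 in edgeR's test across all genes). Nitab4.5_0000302g0200 and Nitab4.5_0006318g0060 had log2 fold changes of -0.37 (SE 0.19) and -1.17 (SE 0.57), both with overlap.

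MYB4 and MYB3 are repressors of phenylpropanoid enzymes in Arabidopsis. Of 39 genes named MYB3, MYB4 or MYB6 18 were tested, 12 with fold changes above 0 and a median of 0.06. A single one was higher at an unadjusted p under 0.05 (5.56%, and 6.1% of all tested genes) and 0 were lower (5.66% of all). MYB4 (Nitab4.5_0000994g0010) was at 9.42, 6.67 and 4.501 CPM in low nitrogen, against 2.84, 4.72 and 3.53 CPM in control, with overlap at low nitrogen replicate 3. Its log2 fold change was 0.89 (SE 0.33, edgeR adjusted p 0.397). Nitab4.5_0006880g0040 was at 1.05, 1.12 and 0.969 CPM in low nitrogen, against 0.648, 4.12 and 2.54 CPM in control, a log2 fold change of -1.22 (SE 0.60) in which control replicate 1 stood below all other libraries. Nitab4.5_0000303g0330, with the most counts of the MYB4 copies, was at 24.6 ± 4.77 CPM in low nitrogen and 27.1 ± 3.04 CPM in control. Summed MYB4 was 122 CPM in each group (SD 7.40 in low nitrogen and 21.2 in control, n = 3).

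MYB26 directs wall thickening in the Arabidopsis anther, MYB80 acts in the tapetum, and MYB52 is known in cell wall formation. MYB26 (Nitab4.5_0000844g0110) was at 5.65, 7.04 and 6.23 CPM in low nitrogen, against 4.70, 4.57 and 4.30 CPM in control. The difference was small but without overlap, at a log2 fold change of 0.48 (SE 0.19, edgeR adjusted p 0.411). MYB26 (Nitab4.5_0000080g0070) was at 1.43 ± 0.357 CPM in low nitrogen and 2.68 ± 1.43 CPM in control (SD, n = 3). MYB52 (Nitab4.5_0000613g0190) was at 6.002, 4.11 and 6.79 CPM in low nitrogen, against 7.46, 7.56 and 8.46 CPM in control, again without overlap, with a log2 fold change of -0.48 (SE 0.23). Over MYB26, MYB52 and MYB58 17 of 25 genes were tested, with 1 higher (the MYB26 copy above) and 0 lower by the unadjusted threshold. The higher share was 5.88%, where 6.1% of all tested genes were higher and 5.66% lower.

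MYB80 had 14 tested copies of 24, and its sum was 133 ± 8.88 CPM in low nitrogen and 129 ± 32.9 CPM in control. MYB80 (Nitab4.5_0000244g0260) was at 6.07, 10.97 and 8.38 CPM in low nitrogen, against 5.67, 6.29 and 3.81 CPM in control, with overlap. It was the single MYB80 gene with an unadjusted p under 0.05 (0.0473 in edgeR's test across all genes) and was named after its values were seen. Nitab4.5_0001442g0010 had a log2 fold change of -0.45 (SE 0.24). The MYB80 copy with the most counts, Nitab4.5_0000578g0120, was at 33.2, 30.8 and 31.3 CPM in low nitrogen, against 23.3, 40.1 and 18.4 CPM in control. Its log2 fold change was 0.22 (SE 0.27), and -0.0043 without control replicate 3.

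The remaining symbols held a few genes each. MYB86 (Nitab4.5_0007042g0010) was at 1.47, 1.62 and 0.831 CPM in low nitrogen, against 0.324, 0.599 and 0.212 CPM in control, a log2 fold change of 1.77 (SE 0.52, edgeR adjusted p 0.363) at low counts. This copy passed the filter through the low nitrogen libraries alone, so its fold change and p are a description and not a test. Other MYB86 copies lay at 0.65 (Nitab4.5_0004482g0030) and -0.79 (Nitab4.5_0001863g0170). MYB124 (Nitab4.5_0007777g0020), which in Arabidopsis acts in the stomatal lineage, was at 20.9, 20.9 and 12.9 CPM in low nitrogen, against 9.64, 13.3 and 13.8 CPM in control. Low nitrogen replicate 3 lay inside the control range, and the log2 fold change was 0.57 (SE 0.24, edgeR adjusted p 0.421). MYB28 (Nitab4.5_0001256g0080), whose Arabidopsis namesake activates glucosinolate synthesis, was at 8.72, 2.74 and 6.85 CPM in low nitrogen, against 2.84, 3.82 and 1.83 CPM in control. Low nitrogen replicate 2 lay among the controls. Its log2 fold change was 1.11 (SE 0.47), and that of another MYB28 copy (Nitab4.5_0000556g0040) was -0.76 (SE 0.43).

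MYB39, a suberin regulator in Arabidopsis, had 7 tested copies of 12 and 0 with an unadjusted p under 0.05. The one with the smallest p, Nitab4.5_0001031g0090, was at 1.26, 2.24 and 1.11 CPM in low nitrogen, against 2.43, 3.22 and 2.40 CPM in control, at -0.80 (SE 0.36) and without overlap. MYB30 (Nitab4.5_0012999g0010), a factor of defence-related cell death, was at 1.59 ± 0.452 CPM in low nitrogen and 1.27 ± 0.727 CPM in control. MYB104 (Nitab4.5_0000271g0230), of the gibberellin-related type, was at 1.89 ± 0.269 CPM in low nitrogen and 2.34 ± 0.662 CPM in control (SD, n = 3 each).

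**Figure D4:**
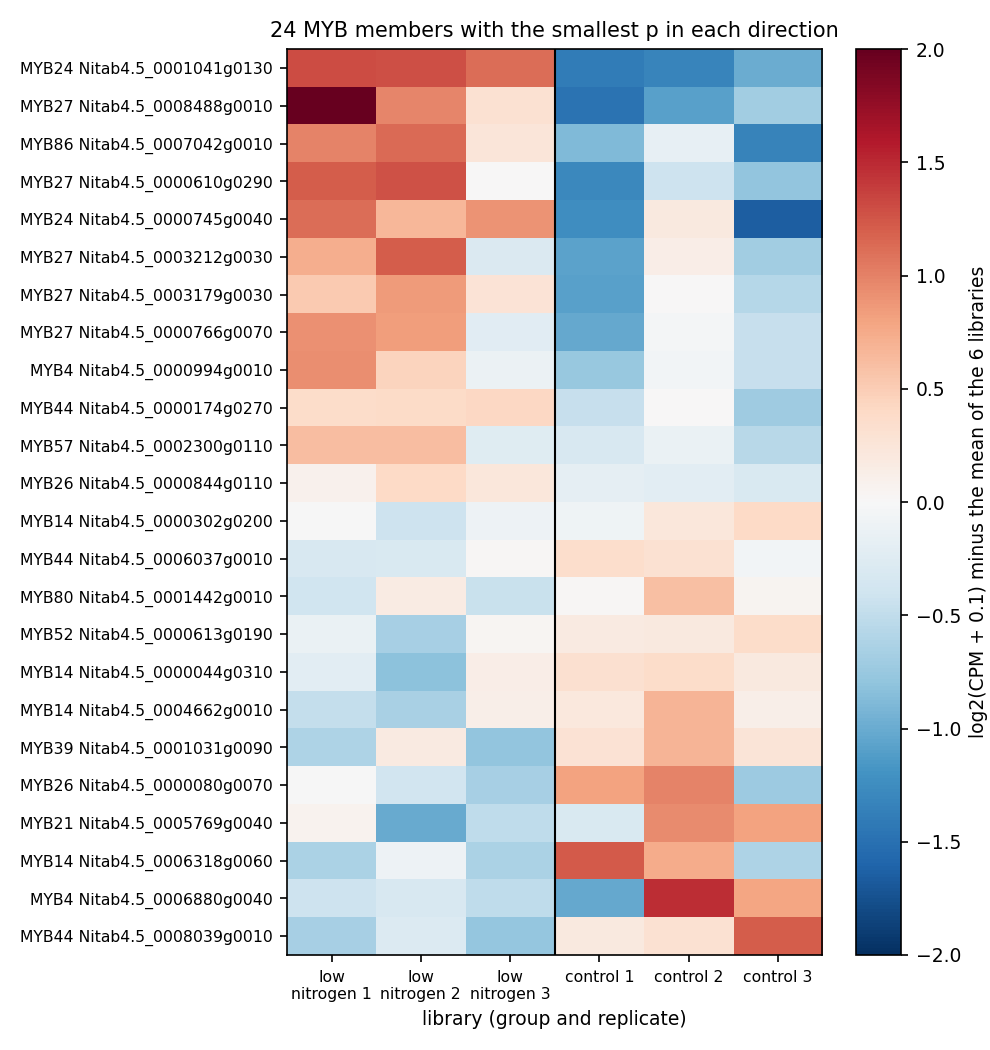
Rows are the 24 MYB genes with the smallest p, 12 in each direction, columns the 6 libraries with low nitrogen on the left, and colour is log2(CPM + 0.1) minus the row mean. The MYB24 copy Nitab4.5_0001041g0130 is even within both groups, low nitrogen replicate 3 is paler than replicates 1 and 2 in the MYB27 and MYB57 rows and in MYB4 Nitab4.5_0000994g0010, and in the MYB44 row Nitab4.5_0008039g0010 control replicate 3 is the highest library.

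Fold changes of copies of 1 symbol often differed in sign. Only MYB14 and MYB44 had copies at an unadjusted p under 0.05 (edgeR) in both directions. The spans below are between the most extreme copies, and differences between copies were not tested. Among symbols with at least 2 tested copies of at least 1 CPM, MYB24 had the widest span of log2 fold changes, 3.08, between Nitab4.5_0001041g0130 and Nitab4.5_0000895g0070. The next spans were 2.11 for MYB4, 2.04 for MYB44, 1.86 for MYB28 and 1.45 for MYB86. For MYB27 it was 1.27, between 1.05 and 2.32. The 1 CPM cut left out a tested MYB27 copy at -0.22 (Nitab4.5_0000063g0230, mean 0.993 CPM). It also left out a MYB86 copy at 1.77 (Nitab4.5_0007042g0010, mean 0.842 CPM). Other symbols had tested copies under the cut too, such as MYB14 Nitab4.5_0006318g0060 at -1.17 (mean 0.944 CPM) and MYB21 Nitab4.5_0005769g0040 at -1.13 (mean 0.828 CPM). Each of these symbols would have a wider span with these copies. The identifiers place 36 members on 17 scaffolds that hold more than 1 member, with at most 4 on a scaffold (4 MYB14 genes), and 6 of the 17 hold copies of a single symbol. In the 5 scaffolds with more than 1 tested member, fold changes had the same sign in 4. The exception was a MYB14 pair at -0.47 and 0.69. MYB genes were also less even within groups than the whole table, at their lower levels: the median coefficient of variation was 28.4% in low nitrogen and 30.8% in control for the 130 MYB genes, against 18.3% in low nitrogen and 17.4% in control over all tested genes.

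Genes on which MYB factors act in Arabidopsis, or with whose products they interact, were read from the same fit, and 0 passed edgeR's adjusted threshold in each list. At an unadjusted p under 0.05, 5 of 42 tested flavonoid enzyme genes were higher (11.9%) and 4 lower (9.52%), where 6.1% and 5.66% of all tested genes were. The list's median log2 fold change was -0.21. Because 68 unrelated matches were removed from this list after values were seen, its shares are a description and not a test. The 5 were 4 genes named DFR, dihydroflavonol reductase, and 1 named CHI, and the 4 were 3 CYP75B1 genes and 1 DFR gene. DFR (Nitab4.5_0000222g0300) was at 6.98, 3.43 and 1.25 CPM in low nitrogen, against 0.486, 0.974 and 1.13 CPM in control, and the gene with the most counts, also named DFR (Nitab4.5_0010897g0020), was at 377 ± 69.2 CPM in low nitrogen and 444 ± 30.1 CPM in control (SD, n = 3). For the bHLH and WD40 partners GL3, TT8 and TTG1, 0 of 5 tested genes had an unadjusted p under 0.05. TTG1 (Nitab4.5_0009395g0010), the WD40 protein, was at 32.7 ± 0.622 CPM in low nitrogen and 29.8 ± 3.21 CPM in control, and GL3 (Nitab4.5_0016536g0010), a bHLH factor, at 5.70 ± 1.999 CPM in low nitrogen and 7.82 ± 1.22 CPM in control.

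Jasmonate repressors of the TIFY family and MYC factors, partners of the MYB21 and MYB24 group, held 21 tested genes. At an unadjusted p under 0.05, 0 of them were higher and 2 lower (9.52%, and 5.66% of all tested genes). Both are TIFY6B genes, which encode a JAZ repressor. Nitab4.5_0002046g0020 was at 18.1, 13.1 and 16.8 CPM in low nitrogen, against 29.7, 27.6 and 20.2 CPM in control, without overlap and with a log2 fold change of -0.70 (SE 0.20, edgeR adjusted p 0.358). The other was Nitab4.5_0001264g0110, at -0.59 (SE 0.23). The gene of this list with the most counts, TIFY6B (Nitab4.5_0000238g0080), was at 90.7 ± 9.26 CPM in low nitrogen and 85.9 ± 25.6 CPM in control (SD, n = 3).

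At the same unadjusted threshold secondary wall genes gave 1 higher (IRX7, Nitab4.5_0001819g0030, at 0.41) and 2 lower genes among 91 tested (1.1% and 2.2%, where 6.1% and 5.66% of all tested genes were), with a median of -0.08. The lower ones make the side chains of xylan: GUX1 (Nitab4.5_0003768g0060) was at 24.7 ± 2.55 CPM in low nitrogen and 31.8 ± 3.38 CPM in control, and GUX1 (Nitab4.5_0001268g0010) at 28.7 ± 1.92 CPM in low nitrogen and 36.0 ± 3.58 CPM in control. LAC5 (Nitab4.5_0000058g0010), a laccase, had the most counts, at 60.1 ± 7.38 CPM in low nitrogen and 65.8 ± 18.7 CPM in control. Suberin and Casparian strip genes gave 2 higher (4.88%) and 0 lower (0%) among 41 tested, where 6.1% and 5.66% of all tested genes were. The higher share thus lay near the background. Fold changes were above 0 for 68.3% of this list, against 50.3% of all tested genes. These differences in share were not tested, and 32 unrelated matches had been removed from the list after values were seen. CYP86B1 (Nitab4.5_0002436g0020), a fatty acid hydroxylase, was at 30.3 ± 7.80 CPM in low nitrogen and 18.4 ± 4.34 CPM in control, and FAR4 (Nitab4.5_0002837g0040), a fatty acyl reductase, at 2.36 ± 0.859 CPM in low nitrogen and 1.17 ± 0.110 CPM in control (SD, n = 3). HHT1 (Nitab4.5_0000827g0030), which adds ferulate to suberin monomers, was at 333 ± 126 CPM in low nitrogen and 481 ± 79.7 CPM in control.

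WRKY and NAC genes are other plant transcription factor families. At the same unadjusted threshold 16 of 130 MYB genes were higher and 3 lower, as given above. Of 140 tested WRKY genes 11 were higher (7.86%) and 6 lower (4.29%), and of 107 tested NAC genes 8 were higher (7.48%) and 5 lower (4.67%). Over all tested genes 6.1% were higher and 5.66% lower, and the WRKY and NAC shares lay near these. Fold changes were above 0 for 54.6% of the MYB genes, against 66.4% of the WRKY genes, 72% of the NAC genes and 50.3% of all tested genes. These differences between families were not tested.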

How the data were processed

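The authors deposited whole-number read counts per gene for 69500 genes in 6 libraries of tobacco seedlings. HISAT2 is named in the submitters' processing notes. The genome annotation is named in the gene identifiers (Nitab4.5), and for the counting tool, its use of strand and its handling of reads that match several copies the sources used here give nothing, so values of near-identical copies are uncertain. Symbols are those in the deposited table, which does not say how they were assigned.

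Counts were tested as deposited with edgeR 4.0.16 in R 4.3.3 (quasi-likelihood test, filterByExpr, TMM factors, Benjamini-Hochberg adjustment over all 38482 tested genes, threshold 0.05), low nitrogen against control with no covariates. Standard errors are the fold change divided by the square root of the F statistic. DESeq2 1.42.0, limma-voom (limma 3.58.1), other scalings and filters, a replicate block, counts summed over genes with the same first symbol and libraries left out were alternatives. Tested on simulated data of 38482 genes for this comparison, edgeR found 63 of 66 genes set to an 8-fold difference, but 50 of 67 at 4-fold and 7 of 67 at 2-fold. Its 127 calls held 7 false ones. For DESeq2 91 of 232 calls were false. The changed genes were drawn from those with a mean above 1 CPM, and tested MYB genes went down to 0.696 CPM. No shifts shared by many genes of a library were simulated. The rates therefore do not cover weaker members or such shifts.

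The MYB genes, role lists and pathway lists were chosen with earlier results of these data known, and 68 unrelated flavonoid, 32 unrelated suberin and 4 unrelated light-harvesting matches (such as chitinases named CHI) were removed after values were seen. Members were named by 12 smallest p in each direction, 8 highest mean CPM, all copies of MYB24 and of symbols with a DESeq2 call, the smallest p of each role list and the 5 widest spans between copies. For each pathway list the genes with the smallest p and the highest mean CPM were named, and further pathway genes at an unadjusted p under 0.05 were added after their values were seen.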

Additional observations from a re-analysis of the deposited data

How the results depend on the processing

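edgeR's count of 0 genes past the threshold, and of 0 MYB genes, held under the other scalings and filters, limma-voom, the replicate block, summed symbols and with control replicate 3 plus low nitrogen replicate 1 left out. DESeq2 gave 588 genes and 3 MYB genes. Leaving out 1 library gave 0 to 11 genes and 0 to 1 MYB genes, the highest of both without control replicate 3, where MYB24 Nitab4.5_0001041g0130 passed. DESeq2's 3 MYB genes became 2 to 8 when a library was left out, 5 of them with control replicate 2 out and 8 with low nitrogen replicate 3 out, an alternative added after seeing the data, as were the MYB27 counts. The shares of all tested genes in those DESeq2 fits are not given here.

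The 16 higher MYB genes at an unadjusted p under 0.05 were 2 with summed symbols, 8 with that pair of libraries left out, and 8 to 19 without 1 library. The 3 lower ones were 7 with no filter beyond a total above 0, 1 with summed symbols and 2 to 9 without 1 library. The 5 higher MYB27 copies were 3 without both libraries and 3 to 6 without 1. The median log2 fold change stayed between -0.03 and 0.12. The cause of these shifts was not tested, except that summing leaves 18 symbols in place of 130 genes and gives single copies no value. Apart from summed symbols, the shares of all tested genes called under these settings are not given here. The shifts can therefore not be read as particular to MYB genes.

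With the replicate number as a block the higher MYB genes were 10, and the adjusted p of MYB24 Nitab4.5_0001041g0130 was 0.516. The share of all tested genes that were higher with the block is not given here. Numbers do not show a pairing: deviations of same-numbered libraries correlated at -0.307, 0.094 and -0.28, and low nitrogen replicate 1 correlated best with control replicate 3 (0.38).

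Near 0, the log2 fold change of MYB80 Nitab4.5_0000578g0120 was -0.039 without both libraries and -0.0043 to 0.61 without 1. That of MYB44 Nitab4.5_0005060g0020 was -0.032 to 0.39 without 1 library. For MYB24 Nitab4.5_0008289g0010 it was 0.043 with library totals alone and -0.41 to 0.32 without 1 library. Of the other alternative values for the named tested genes and for summed MYB27, MYB14, MYB24 and MYB57, 554 kept their direction and side of the threshold and 4 passed it, in DESeq2 or without control replicate 3. Sums of other symbols were less stable without 1 library: MYB21 ranged from -0.52 to 0.39, MYB108 from -0.41 to 0.14, MYB4 from -0.12 to 0.13 and MYB80 from -0.12 to 0.25. With 3 libraries a group and 0.192 to 0.230 CPM for 3 counts, changes of weakly counted copies are limited by depth.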

Other observations

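Genes that name MYB outside the rule were also counted. Of these 34 genes, 21 were tested, with 2 higher and 0 lower at edgeR's unadjusted p under 0.05 and a median log2 fold change of 0.04, against 6.1% and 5.66% of all tested genes higher and lower.

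Among the weakly counted symbols, MYB48 had 0.349, 1.31 and 1.38 CPM summed over 5 genes in low nitrogen, against 0.243, 0.225 and 0.423 CPM in control. Low nitrogen replicates 2 and 3 lay above all controls and replicate 1 lay below control replicate 3. No MYB48 gene passed the filter, so the difference was not tested.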
